A study of Homo sapiens with 5 samples.

Results

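The imprinted DLK1 and MEG3 locus of chromosome 14 was described by 106 of the 288391 windows of 1000 bases in which DNA methylation had been measured in human iPSCs. A window was a member where the deposited table assigned it to DLK1, MEG3, MEG8, MEG9 or RTL1, or where it lay between 100.7 and 101.1 Mb of chromosome 14 (GRCh38). All 106 windows met the rule by position and 38 of them also by gene symbol, 20 for DLK1, 12 for MEG3, 4 for RTL1, 2 for MEG9 and 0 for MEG8. Of the rest, 43 were assigned by the table to miRNA or snoRNA genes or to the miRNA host gene MIR493HG, and 25 had no symbol. The cells were the established line 201B7 (HPS0063), a single clone labelled wild type and grown without feeder cells. The imaging assays of the study used cells of this line with an mCherry-MBD-nls construct, a fluorescent methyl-CpG-binding protein, and whether the cells read here carried it is not clear from the sources used here. Their DNA was read by RRBS, in which a restriction digest enriches CpG-rich fragments before bisulfite conversion. The 5 libraries came from cells kept for 48 h with 0.1% DMSO as the vehicle control, 1 nM etoposide (a topoisomerase II inhibitor), 1 µM propyl gallate (an antioxidant food additive), 1 µM theophylline (a methylxanthine that inhibits phosphodiesterases) or 10 nM 5-aza-dc (a nucleoside that traps DNA methyltransferases). There was 1 library per condition, so no difference below has a replicate check, and each test compares 2 libraries and not 2 conditions.

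Imprinted genes are expressed from the chromosome inherited from one parent, and the parental origin is kept as DNA methylation of differentially methylated regions, which carry methylation on one allele only. At this locus the protein-coding genes DLK1, a Notch-like transmembrane protein that restrains differentiation, and RTL1, a retrotransposon-derived protein of the placenta, are expressed from the paternal chromosome. The noncoding RNAs MEG3, MEG8 and MEG9 and the large clusters of miRNAs and snoRNAs are expressed from the maternal one. Methylation of an intergenic region and of the MEG3 promoter marks the paternal chromosome, and a gain of methylation over MEG3 is a known defect of some iPSC lines.

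In these data the locus was highly methylated with a few windows of intermediate β-value. The β-value is the methylated share of the CpG calls in a window, in %. In the vehicle control the intermediate windows included all 5 windows of the CpG island at the start of MEG3. Of these 5, 4 were intermediate with etoposide, 3 with propyl gallate, 4 with theophylline and 4 with 5-aza-dc. Over that island, pooled calls gave β-values of 58.6% in the vehicle control, 62.8% with etoposide, 57.5% with propyl gallate, 62.1% with theophylline and 61.1% with 5-aza-dc. Means over its 5 windows were 60.4%, 64.0%, 65.9%, 65.1% and 63.1% in the same order. Propyl gallate was thus the lowest library by pooled calls and the highest by the mean of windows. The β-value sums both alleles and all cells, so methylation of one allele in every cell and of both alleles in a part of the cells cannot be told apart. The window with the strongest difference between libraries by Fisher's exact test against the vehicle control was at the downstream end of that island, where theophylline stood at 89.9% and the vehicle control at 61.6%.

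Promoter sequences were matched by symbol to RefSeq (GRCh38.p14), which held an entry for 3 of the 5 members. MEG3 and RTL1 are shown because their starts differ in CpG content and methylation, and the uncharacterised gene LOC105370669 is shown because the window with the greatest range over the 5 libraries covers part of its promoter. CpGs are in capitals, and each sequence runs 5′ to 3′ on the strand of the gene.
MEG3, chr14:100825858-100826157, plus strand: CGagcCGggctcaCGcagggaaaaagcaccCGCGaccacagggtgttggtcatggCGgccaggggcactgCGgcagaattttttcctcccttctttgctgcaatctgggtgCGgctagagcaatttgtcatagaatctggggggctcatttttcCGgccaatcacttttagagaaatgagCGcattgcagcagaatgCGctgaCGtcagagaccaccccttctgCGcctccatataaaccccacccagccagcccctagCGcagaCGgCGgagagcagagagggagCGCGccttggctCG
RTL1, chr14:100903723-100903972, minus strand: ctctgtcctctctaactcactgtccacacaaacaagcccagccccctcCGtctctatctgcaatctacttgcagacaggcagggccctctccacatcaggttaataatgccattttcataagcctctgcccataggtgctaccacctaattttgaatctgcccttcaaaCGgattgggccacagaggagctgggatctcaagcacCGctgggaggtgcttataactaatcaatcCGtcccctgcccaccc
LOC105370669, chr14:100708817-100709116, plus strand: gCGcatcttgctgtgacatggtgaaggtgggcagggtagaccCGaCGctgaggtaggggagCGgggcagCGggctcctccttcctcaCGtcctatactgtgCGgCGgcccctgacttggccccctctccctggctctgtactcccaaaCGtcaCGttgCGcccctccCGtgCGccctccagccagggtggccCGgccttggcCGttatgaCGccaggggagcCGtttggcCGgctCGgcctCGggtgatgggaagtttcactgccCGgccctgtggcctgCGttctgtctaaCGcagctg

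The MEG3 and LOC105370669 sequences span 250 bases before and 50 after the start, and that of RTL1 only the 250 bases before it. They hold 19, 23 and 4 CpGs, respectively, against a median of 14 over all 34941 RefSeq promoters of 300 bases and 11 over the same promoters cut to 250 bases. The letters TGCCGC, which ZFP57 binds when methylated, were searched on both strands and occurred 1 time in the MEG3 promoter and 0 times in the other two. They occurred in 16.7% of all promoters of 300 bases. TGACGTCA, the cAMP response element, was found 1 time in the MEG3 promoter, 50 bases before the start, and in 1.84% of all promoters. CCGG, the site cut by MspI, was found 2 times for MEG3, 3 times for LOC105370669 and 0 times for RTL1, and in 63.1% of all promoters of 300 bases. The MEG9 promoter held 4 CpGs, and no window of the table covers it.

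Depth decided how closely each window could be read. The windows of the locus held 18 to 4568 calls in the vehicle control (median 513.5), and the medians were 387.5 with etoposide, 445.5 with propyl gallate, 426.5 with theophylline and 400.5 with 5-aza-dc. The median width of the 95% Wilson interval of a window was between 4.94 and 6.25 percentage points. These intervals cover counting error only, and neighbouring calls on 1 read are not independent. Library totals over the table were between 188844639 and 228919184 calls. Of 9 pluripotency genes used as markers, the window nearest the start was at 0.427% for SOX2, 0.821% for LIN28A, 0.352% for DPPA4, 0.536% for SALL4 and 6.97% for TDGF1 in the vehicle control. The nearest windows of POU5F1, DPPA2, ZFP42 and NANOG were at 60.9% to 97.2%, and that of NANOG lay 6207 bases from the start.

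**Figure D1:**
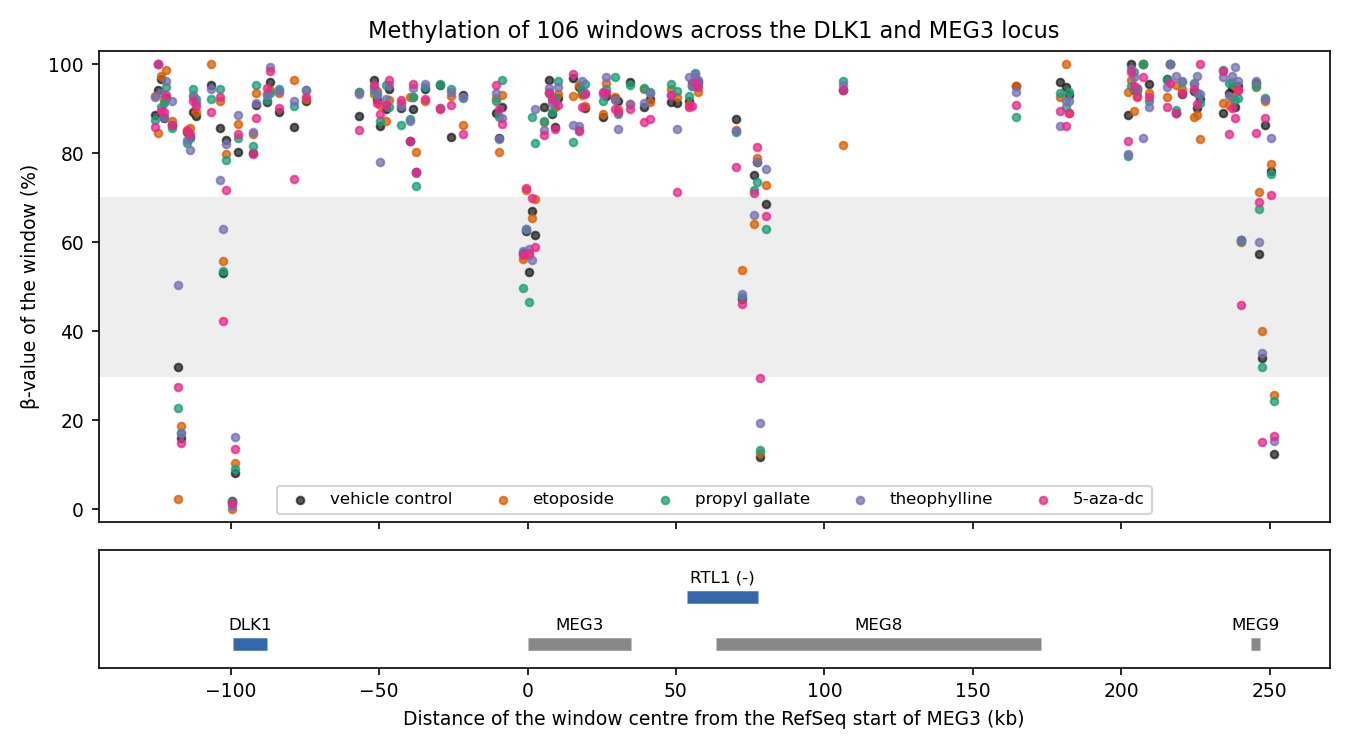
β-value (%) of each of the 106 windows in the 5 libraries against the distance of the window centre from the RefSeq start of MEG3 in kb, with the RefSeq extent of the 5 members below (blue, protein-coding; grey, noncoding; RTL1 on the minus strand). The grey band marks 30% to 70%; the windows around the MEG3 start lie in it in the vehicle control, and the DLK1 start lies near 0.

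Across the locus, the mean β-value was 82.8% in the vehicle control, 83.5% with etoposide, 83.7% with propyl gallate, 84.0% with theophylline and 81.6% with 5-aza-dc. In the vehicle control 56 windows were at 90% or more, 33 between 70% and 90%, 12 between 30% and 70% and 5 below 30%. The windows at 30% to 70% made up 11.3% of the locus and 4.33% of all windows of the table. Among CpG island windows they were 7 of 19, or 36.8%, against 5.96% of the island windows of the table. Outside islands they were 5 of 87, or 5.75%, against 3.99%. The excess of intermediate windows over the table was thus larger, as shares, within islands than outside them. Of the 7 island windows, 5 were the adjoining windows of the MEG3 island. With the chemicals the share among island windows of the locus was 21.1% to 31.6%. In island windows of genes with other imprinted regions it was 17.1% in the vehicle control. Over the whole locus, the number of intermediate windows was 9 with etoposide, 9 with propyl gallate, 11 with theophylline and 9 with 5-aza-dc. A total of 5 windows were intermediate in all 5 libraries, which was 4.72% of the locus and 2.53% of the table. With 40% to 60% as the bounds, 5 windows of the vehicle control were counted in place of 12.

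DLK1 (ENSG00000185559) lies on the plus strand at chr14:100726892-100738224 in RefSeq. The window that holds its start, at chr14:100726001-100727000 in a CpG island, had β-values of 1.83% in the vehicle control, 0.0% with etoposide, 1.58% with propyl gallate, 0.787% with theophylline and 1.29% with 5-aza-dc. The start was therefore unmethylated in every library, and the 0 of 419 calls with etoposide allow a share of up to 0.716% by the limit of 3 calls and 0.908% by the Wilson interval. The next window, at chr14:100727001-100728000, was at 8.0%, 10.3%, 8.89%, 16.3% and 13.6% in the same order of libraries. Here theophylline and 5-aza-dc were above the other 3 libraries, and their differences from the vehicle control of 8.29 and 5.58 points had adjusted p = 2.37e-06 and adjusted p = 7.61e-04 by Fisher's exact test. From chr14:100728001 on, methylation was high, with 80.2% in the vehicle control, 86.5% with etoposide, 83.3% with propyl gallate, 88.5% with theophylline and 84.4% with 5-aza-dc in that window.

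The windows upstream of DLK1 included 2 of intermediate level. That at chr14:100723001-100724000, in a CpG shore, was at 53.0% in the vehicle control, 55.7% with etoposide, 53.4% with propyl gallate, 63.0% with theophylline and 42.3% with 5-aza-dc. The first 3 libraries lay together, theophylline was above them by 10.0 points from the vehicle control (Fisher's exact test, adjusted p = 6.50e-05) and 5-aza-dc was below them, with a difference of -10.6 points (Fisher's exact test, adjusted p = 2.64e-05). The adjoining window, at chr14:100724001-100725000, was at 82.9%, 79.7%, 78.5%, 82.1% and 71.8% in the same order, and 5-aza-dc was again the lowest (Fisher's exact test against the vehicle control, adjusted p = 2.94e-07). The other, at chr14:100708001-100709000, is in the CpG island of LOC105370669, whose promoter sequence is given above and which the table assigns to DLK1. Its β-values, as deposited from the scaled calls, were 32% in the vehicle control, 2.27% with etoposide, 22.8% with propyl gallate, 50.4% with theophylline and 27.4% with 5-aza-dc. The calls before scaling numbered 50, 75, 117, 227 and 69 in that order, and 2 of the 75 with etoposide were methylated. It had the greatest range of the locus, 48.1 points, on few calls. The next window of the same island, with 1855 to 2264 calls, was at 16.0%, 18.7%, 17.1%, 17.2% and 14.8% in the same order, and none of its differences from the vehicle control had an adjusted p under 0.01.

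Between DLK1 and the MEG3 island, 21 windows ranged from 75.7% to 96.5% in the vehicle control, and 0 of them were intermediate in any of the 5 libraries. A stretch of 10000 bases upstream of the MEG3 island, chr14:100805001-100815000, held no window. The position of the intergenic differentially methylated region is not given in the sources used here, so no window was assigned to it. The window at chr14:100800001-100801000, between DLK1 and the MEG3 island, was assigned to MIR2392. Only in this window of the locus did all 4 chemicals differ from the vehicle control (Fisher's exact test, adjusted p under 0.01). It was at 83.7% in the vehicle control, 92.9% with etoposide, 94.4% with propyl gallate, 93.7% with theophylline and 90.9% with 5-aza-dc. The 4 comparisons share the vehicle control library.

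MEG3 (ENSG00000214548) starts in RefSeq at chr14:100826108 on the plus strand and ends at 100861026. The deposited table takes a start far upstream, at 100779410, and the 12 windows it assigned to MEG3 do not include the island, whose 5 windows it assigned to entries without a symbol. The window that holds the RefSeq start, chr14:100826001-100827000, was at 53.3% in the vehicle control, 57.0% with etoposide, 46.6% with propyl gallate, 58.4% with theophylline and 57.5% with 5-aza-dc. Propyl gallate was the lowest library there, with a difference of -6.64 points from the vehicle control (Fisher's exact test, adjusted p = 2.49e-03). The printed promoter lies partly in this window and partly in the one just upstream, which was at 62.5%, 71.8%, 62.9%, 63.0% and 72.1% in the same order. Etoposide and 5-aza-dc were above the other 3 in this window, by 9.23 and 9.59 points from the vehicle control (Fisher's exact test, adjusted p = 3.90e-09 and adjusted p = 3.75e-09). The first window of the island, chr14:100824001-100825000, was the deepest of the locus in the vehicle control with 4568 calls. It was at 57.6%, 56.1%, 49.7%, 58.1% and 57.1%, so that propyl gallate was again the lowest, with a difference of -7.91 points (Fisher's exact test, adjusted p = 1.36e-08).

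The downstream end of the island varied more. The window at chr14:100827001-100828000 was at 66.9% in the vehicle control, 65.5% with etoposide, 88.0% with propyl gallate, 55.9% with theophylline and 70% with 5-aza-dc, where 118, 101, 108, 125 and 57 calls had been made before scaling. That at chr14:100828001-100829000 was at 61.6%, 69.6%, 82.2%, 89.9% and 59.0% in the same order, from 972, 755, 833, 635 and 515 calls. In the latter, 5-aza-dc differed from the vehicle control by -2.65 points (Fisher's exact test, adjusted p = 0.556), whereas etoposide was 7.93 points higher (Fisher's exact test, adjusted p = 7.14e-03), propyl gallate 20.6 points higher (Fisher's exact test, adjusted p = 7.40e-19) and theophylline 28.3 points higher (Fisher's exact test, adjusted p = 1.25e-34). Propyl gallate was thus lower than the vehicle control in 2 windows at and before the start of MEG3 and higher in the 2 windows downstream, and its pooled value over the island, 57.5%, does not show this. In the 14 windows of the rest of MEG3, β-values were 85.9% to 96.9% in the vehicle control, and the means of the 5 libraries were between 90.6% and 92.1%.

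**Figure D2:**
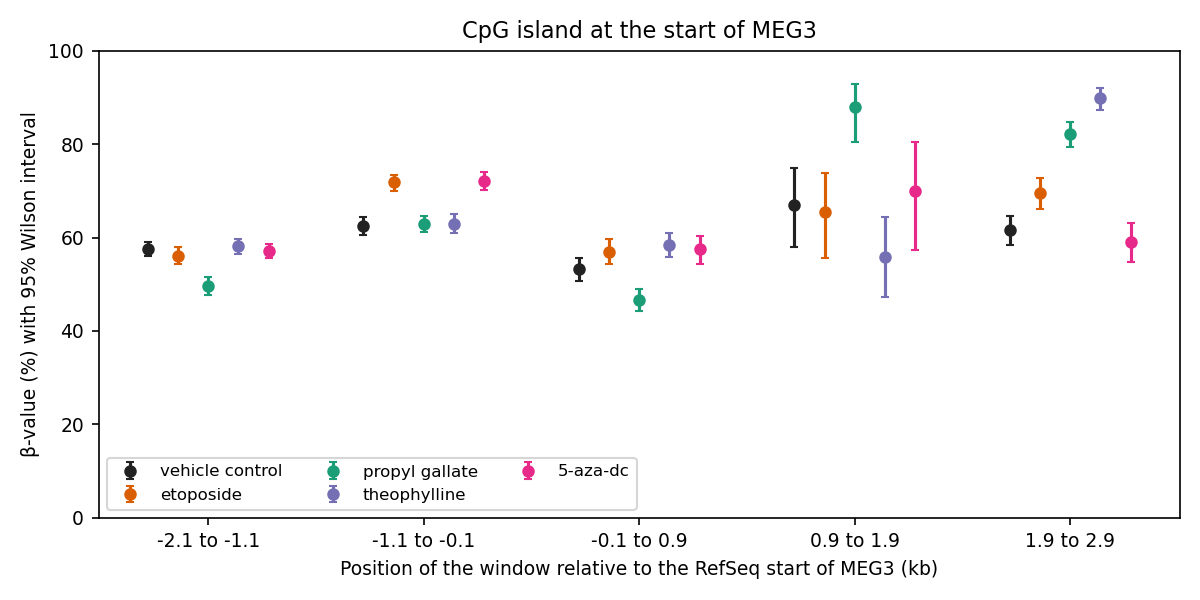
β-value (%) with 95% Wilson interval in the 5 windows of the CpG island at the RefSeq start of MEG3, by library; the horizontal axis gives the position of each window from the start in kb. The first 3 windows lie between 46.6% and 72.1% in all libraries, and in the last window propyl gallate and theophylline stand at 82.2% and 89.9%.

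RTL1 (ENSG00000254656) lies on the minus strand at chr14:100879753-100903722, and its start is inside MEG8, a noncoding RNA of the plus strand at chr14:100889649-100999113. RRBS windows join both strands, so their values belong to both genes. The window that holds the RTL1 start, chr14:100903001-100904000, was at 78.0% in the vehicle control, 78.9% with etoposide, 73.5% with propyl gallate, 78.0% with theophylline and 81.4% with 5-aza-dc. No library differed from the vehicle control there in Fisher's exact test at an adjusted p under 0.01. The window upstream of RTL1, chr14:100904001-100905000, was outside any CpG island and yet low, at 11.7% in the vehicle control, 12.7% with etoposide, 13.3% with propyl gallate, 19.4% with theophylline and 29.5% with 5-aza-dc. The first 3 libraries lay close together, and 5-aza-dc was the highest, 17.8 points above the vehicle control (Fisher's exact test, adjusted p = 4.81e-18). Of the 8 windows of MEG8 by RefSeq, those at chr14:100898001-100899000 and chr14:100906001-100907000 were intermediate. The former was the most even intermediate window of the locus, at 47.1%, 53.8%, 47.6%, 48.3% and 46.1%, a range of 7.72 points. The latter was at 68.5%, 72.8%, 63.0%, 76.5% and 65.9%, on 85 to 127 calls. The start of MEG8 was in a stretch of 12000 bases without windows.

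MEG9 (ENSG00000223403), the most downstream noncoding RNA of the members, lies at chr14:101069911-101072937. Of its windows by RefSeq, that at chr14:101071001-101072000 was at 95.7% in the vehicle control, 94.8% with etoposide, 95.1% with propyl gallate, 96.2% with theophylline and 84.5% with 5-aza-dc. The 5-aza-dc library stood below the other 4, with a difference of -11.2 points from the vehicle control (Fisher's exact test, adjusted p = 5.60e-05). The window at the end of the gene, chr14:101072001-101073000, was intermediate, at 57.4%, 71.3%, 67.5%, 60.1% and 69.0% in the same order. Etoposide, propyl gallate and 5-aza-dc were higher there than the vehicle control by 13.9, 10.1 and 11.5 points, with adjusted p of 1.19e-07, 7.56e-05 and 3.50e-05 by Fisher's exact test. In the window just beyond, chr14:101073001-101074000, β-values were 33.9%, 40.1%, 32%, 35% and 15.1%, and 5-aza-dc was the lowest library, with a difference of -18.8 points (Fisher's exact test, adjusted p = 2.77e-07). The direction of the 5-aza-dc library thus turned between adjoining windows. In the miRNA cluster upstream of MEG9, the window at chr14:101066001-101067000, assigned to MIR410, was at 60.4%, 60%, 60.2%, 60.4% and 45.9%, on 77 to 101 calls, with no adjusted p in Fisher's exact test under 0.01 against the vehicle control. The window at chr14:101077001-101078000, in a CpG island, was at 12.3%, 25.6%, 24.3%, 15.4% and 16.5%, and etoposide was higher than the vehicle control by 13.3 points (Fisher's exact test, adjusted p = 1.83e-03). The highest β-values in the vehicle control, 100%, were in 3 windows of the miRNA cluster with 18 to 54 calls, assigned to MIR1193, MIR495 and MIR1185-1.

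Averaged over the windows that the table assigned to each gene, DLK1 was at 71.3% in the vehicle control, 72.2% with etoposide, 72.3% with propyl gallate, 74.1% with theophylline and 70.3% with 5-aza-dc. MEG3 was at 89.6%, 90.8%, 90.3%, 90% and 89.7% in that order, MEG9 at 60.2%, 65.9%, 62.2%, 63.6% and 51.5%, and RTL1 at 58.3%, 57.1%, 55.4%, 60% and 62.0%. All windows assigned to MEG3 lie upstream of its RefSeq start, and those assigned to MEG9 lie beyond its RefSeq end. By the means over assigned windows, MEG3 was the highest member in every library and DLK1 the next. The ranges of MEG9 and RTL1 over the libraries overlapped. These means depend on the windows taken: over the RefSeq gene and 1500 bases upstream, the vehicle control was at 58.7% for DLK1 (6 windows), 83.8% for MEG3 (19 windows), 69.7% for MEG8 (8 windows), 75.3% for RTL1 (9 windows) and 76.6% for MEG9 (2 windows). By that extent MEG3 was still the highest member in every library, but DLK1 was the lowest. Among 23421 genes, those with means over assigned windows closest to DLK1 were RNU6-777P, GRIK4, STX1A, DIP2C and DPPA2P2. Their root mean square differences over the 5 libraries were 0.352 to 0.445 points. For MEG3, whose assigned windows hold no part of the RefSeq gene, the closest were ABHD18, DOCK9-DT, MRPL50P2, GNB1 and ANKRD13C, at 0.282 to 0.371 points.

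Against the vehicle control, few windows of the locus passed an adjusted p of 0.01 together with a difference of 25 points by Fisher's exact test. With etoposide it was 1 window, that of the LOC105370669 island, which differed by -29.7 points (Fisher's exact test, adjusted p = 1.92e-04), and 0.19% of all windows were called. With all calls divided by 2, to allow for calls that share a read, this call was lost (Fisher's exact test, adjusted p = 5.97e-02). With theophylline it was 1 window, the last of the MEG3 island, which was higher by 28.3 points, against 0.175% of all windows. This call was kept with the calls divided by 2 (Fisher's exact test, adjusted p = 8.24e-16) and lost with the calls divided by 10 (adjusted p = 9.17e-01). With propyl gallate and 5-aza-dc it was 0 windows, against 0.176% and 0.309% of all windows. A single window is 0.943% of the locus, the smallest share above 0 that 106 windows can give, so these counts are not read against the background. Between the chemicals, 0 windows were called for etoposide and propyl gallate (0.196% of all windows), 1 for etoposide and theophylline (0.195%), 1 for etoposide and 5-aza-dc (0.369%), 2 for propyl gallate and theophylline (0.175%), 0 for propyl gallate and 5-aza-dc (0.344%) and 1 for theophylline and 5-aza-dc (0.378%). These calls came from 3 windows, that of the LOC105370669 island and the last 2 of the MEG3 island.

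In Fisher's exact test at an adjusted p under 0.01 and with any difference, 9 windows were higher and 1 lower with etoposide, where 6.38% and 3.74% of all windows were. With propyl gallate 15 windows, or 14.2% of the locus, were higher and 5 lower, against 6.55% and 3.71%. With theophylline 15 windows were higher and 2 lower, against 8.13% and 2.86%. With 5-aza-dc 8 windows were higher and 13 lower, against 3.55% and 10.4%. As in the table, windows higher than the vehicle control outnumbered lower ones with etoposide, propyl gallate and theophylline, and the reverse held with 5-aza-dc. Of the 106 windows, 60 passed in no chemical, 31 in 1, 9 in 2, 5 in 3 and 1 in all 4. The same counts were not made over all windows, so these are not read against the table. The 4 comparisons share the vehicle control library.

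The mean difference over the 106 windows was 0.666 points with etoposide, 0.907 with propyl gallate, 1.23 with theophylline and -1.23 with 5-aza-dc. Over all windows it was 0.513, 0.566, 0.975 and -1.03 points. The 95% counting intervals of the locus were 0.12 to 1.21, 0.402 to 1.41, 0.649 to 1.80 and -1.79 to -0.668, and each held the value of the table. Over all 106 windows no shift apart from that of the table was therefore detectable at this depth. Over the 19 CpG island windows of the locus, the mean difference was 3.42 points with theophylline (counting interval 2.04 to 4.80) and 1.87 with propyl gallate (0.494 to 3.25), and these intervals did not hold the 0.442 and 0.176 points of all island windows. With etoposide and 5-aza-dc it was -0.172 (-1.59 to 1.25) and -0.475 (-2.02 to 1.07), against 0.178 and -0.969 over all islands, within the intervals. The intervals cover counting error only, and 5 of these island windows are those of the MEG3 start. The medians over the 19 windows were below the means, at 1.2 points with theophylline and 0.4 with propyl gallate. With theophylline the largest differences were 28.3 points in the last window of the MEG3 island and 18.4 in the LOC105370669 window of few calls. With propyl gallate they were 21.1 and 20.6 points, in the last 2 windows of the MEG3 island. As a mean log2 ratio of β-values over the locus, etoposide was at -0.003, so the sign of its mean difference depended on the scale. The 5-aza-dc library was the lowest of the 5 in 41 windows, the vehicle control in 26, etoposide in 16, propyl gallate in 15 and theophylline in 8. With the calls pooled over the locus, the difference was -0.399 points with 5-aza-dc and 2.69 with theophylline.

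Intermediate windows varied more between the libraries than highly methylated ones. At equal depth their counting error is also larger, and how much of the difference it accounts for was not tested. The range over the 5 libraries had a median of 14.2 points in the 12 intermediate windows and 6.81 points in the 89 windows at 70% or more. Over all windows the medians were 11.6 and 6.61 points, and in 20 genes with other imprinted regions, of which 18 had windows, they were 14.6 and 6.67 points. Those genes had 17 intermediate windows of 195 in the vehicle control, or 8.72%, in 9 genes. The window nearest the start of KCNQ1OT1, a noncoding RNA of the imprinted cluster at 11p15, was at 57.0% in the vehicle control, 47.5% with etoposide, 52.5% with propyl gallate, 64.4% with theophylline and 49.6% with 5-aza-dc. That of GNAS, a G protein subunit gene with imprinted transcripts, was at 54.8%, 54.5%, 44.1%, 61.8% and 52.6%. That of H19, a maternally expressed noncoding RNA, was at 57.5%, 54.5%, 52.2%, 57.4% and 56.6%, and that of NNAT, a paternally expressed gene, at 25.5%, 34.7%, 38.3%, 20.6% and 41.1%. Theophylline was the highest library at KCNQ1OT1 and GNAS, the vehicle control at H19 and 5-aza-dc at NNAT, where theophylline was the lowest. These genes do not stand for the set. In the vehicle control, the nearest windows of its other genes were at 0.477% to 15.3% or at 77.2% to 96.2%. In the 10 genes of 14q32 on either side of the locus, 3 of 117 windows, or 2.56%, were intermediate. The windows nearest the starts of BEGAIN, upstream of DLK1, and of DIO3, the imprinted deiodinase gene downstream, were at 3.38% to 6.26% and at 2.52% to 3.60% over the 5 libraries. In both of these sets no window was called at 25 points, other than 1 higher with theophylline in H19.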

How the data were processed

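DNA methylation was measured by RRBS in 5 libraries, 1 per condition, and analysed from the processed tables. Per the labels and the methods, the authors trimmed reads with Trim Galore 0.5.0, aligned them with Bismark 0.20.0 and summed CpG calls in windows of 1000 bases with methylKit 1.10.0 (hg38), which scaled coverage, removed windows under 10 calls or above the 99.9th percentile and kept windows shared by all libraries. The deposited vehicle control values are counts. Those of the other 4 libraries are a score, calls that the authors scaled and rounded, and the calls before scaling were worked back with factors of 1.18, 1.09, 1.15 and 1.21, which returned at least 99.94% of the deposited coverages. The deposited β-value is a fraction of methylated calls, given here in percent.

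Fisher's exact test (two-sided, Benjamini-Hochberg over 288391 windows) was run on the calls before scaling. In a simulation of 5-aza-dc against the vehicle control it called 200 of 200 changed windows and 0 unchanged ones. The simulation checked the calculation only. It gives no rate of false or missed calls for these libraries, where calls can share a read and no condition has a replicate. Shares have 95% Wilson intervals. Python 3.11.15 was used with numpy 2.4.6, pandas 2.3.3, scipy 1.17.1, numba 0.67.0 and matplotlib 3.10.9. The members and all gene lists were chosen with earlier results of these data known. Windows were named where they hold or adjoin the start of a member, were at 30% to 70% in the vehicle control, were called, or had the highest or the lowest β-value. Windows with a difference of 10 points or in which all 4 chemicals differed were named after their values were seen, as were the other imprinted genes. Promoters are from RefSeq (GRCh38.p14), and the starts of genes are those of RefSeq.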

Additional observations from a re-analysis of the deposited data

How the results depend on the processing

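No paired analysis was possible because each condition has 1 library. Dividing all calls by 2, to allow for calls that share a read, left 3 windows of the locus past the threshold of Fisher's exact test at any difference with etoposide, 3 with propyl gallate, 6 with theophylline and 7 with 5-aza-dc, in place of 10, 20, 17 and 21, and dividing them by 10 left 0 in each. Of the 18 differences of at least 10 points, 9 passed after division by 2 and 0 after division by 10, and 18 passed on the calls as deposited. At 25 points, division by 2 left 0 windows with etoposide, and division by 10 left 0 with theophylline too. At an adjusted p under 0.05, 23 windows passed with etoposide. With a difference of at least 10 points, 3 windows were called with etoposide, 4 with propyl gallate, 3 with theophylline and 8 with 5-aza-dc. The share of all windows was not computed at these altered calls and thresholds, so the counts are not read against the table. Taking only the 38 windows assigned by symbol, 4, 4, 5 and 6 windows passed at any difference, and 0 at 25 points with theophylline, since fewer windows were counted.

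The mean difference with etoposide turned from 0.666 points to -0.003 as a mean log2 ratio of β-values over 105 windows; the other mean log2 ratios were 0.019 with propyl gallate, 0.031 with theophylline and -0.018 with 5-aza-dc. With pooled calls the differences were 1.59 points with etoposide, 2.69 with theophylline and -0.399 with 5-aza-dc. Over windows by symbol they were 1.98 with theophylline and -0.568 with 5-aza-dc, and against the mean of the other 4 libraries -1.93 with 5-aza-dc. The cause was not tested. Intermediate windows numbered 5 at 40% to 60%. The vehicle control means by RefSeq extent were 58.7% for DLK1, 83.8% for MEG3, 76.6% for MEG9 and 75.3% for RTL1, and with pooled calls 67.1%, 91.0%, 56.7% and 52.2%, since other windows or weights were taken.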

Other observations

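The 16 genes listed with the locus as genes of imprint maintenance had 204 windows. Of these windows, 7, or 3.43%, were at 30% to 70% in the vehicle control. Against the vehicle control, 0 of them were called at 25 points with any chemical. The window nearest the start of DNMT1, the maintenance DNA methyltransferase, was at 0.625% in the vehicle control and between 0.0% and 0.772% with the 4 chemicals. Those of TET1, TET2 and TET3, which oxidise methylated cytosine, were at 1.23%, 1.4% and 0.864% in the vehicle control. That of ZFP57, the zinc finger protein that binds methylated imprinted regions, was at 96.1% in the vehicle control, 96.7% with etoposide, 96.0% with propyl gallate, 96.8% with theophylline and 95.5% with 5-aza-dc.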
